A study of Ambystoma mexicanum with 5 samples.

Results

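The kidney of the axolotl (Ambystoma mexicanum), a salamander that keeps its larval form as an adult, was profiled at rest in 3 untreated animals. The 3 libraries are all the samples labelled as untreated controls, out of 5 in the series; the other 2 came from animals treated with gentamicin and are not analysed here. Kidney RNA of 1 axolotl went into each library, and no animal was used for more than 1, so the spread between libraries is a spread between animals. The labels give no age, sex or strain for these groups, and no allele or transgene. The series addresses kidney regeneration, and the untreated kidneys show which genes the organ uses before any injury. Control 1, control 2 and control 3 are named as in the labels, and series of 3 values are given in that order.

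The adult kidney of a salamander is a mesonephros. Its nephrons begin at a glomerulus, where podocytes hold back plasma proteins, and continue through ciliated stretches into a proximal tubule, which takes up protein, glucose, phosphate, amino acids and organic ions. A diluting segment, a distal tubule and a collecting duct system then recover salt and set acid and potassium loss, and in many amphibians some tubules also open to the body cavity through ciliated funnels. The tissue between the nephrons can hold interrenal cells, which make corticosteroids, chromaffin cells, which make catecholamines, and blood-forming cells, so a whole-kidney library can carry RNA from all of them.

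The deposited table held 100758 gene models, and 36253 of them were counted at least once in the untreated kidneys. The libraries held 13674201, 15087765 and 14884904 counts, and the upper limit behind a count of 0, taken as 3 counts, equals 0.199 to 0.219 counts per 1000000 counts (CPM) and covers counting error only. Levels are given as transcripts per 1000000 transcripts (TPM), which divide each count by the length of the gene model and bring every library to the same total, so that genes can be compared with each other. Where several gene models carry 1 symbol their TPM were added. In whole tissue, fewer cells of a type and less RNA per cell cannot be told apart.

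A total of 21325 gene models averaged at least 1 TPM in untreated kidneys, with 21222, 21014 and 21146 in the single animals. Of these, 8482 averaged at least 10 TPM, 1370 at least 100 TPM and 165 at least 1000 TPM, and 18186 were at 1 TPM or more in every animal. The median level among the models at 1 TPM or more was 6.65 TPM. The output was concentrated in few genes, since 284 models held 50% of all TPM and 5257 held 90%. The 10 most abundant models held 8.69%, 9.87% and 8.36% of TPM, with a mean of 8.97 ± 0.795% (SD, n = 3). Models with a gene symbol in the table made up 27032 of all models and 88.2% of TPM.

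The most abundant named transcripts encoded iron storage, respiration and translation. FTH1, the heavy chain of ferritin, which stores iron, led with a model at 16134, 28321 and 13996 TPM, annotated at 1p, 1224389186 to 1224584030, plus strand. A further FTH1 model at 1p, 1224463335 to 1224688738, minus strand had 10604, 6693 and 10158 TPM. Control 2 was the highest animal for the first model and the lowest for the other. These models overlap on opposite strands, and without a stated strand setting of the counting their reads cannot be told apart. Over all 7 FTH1 models the level was 29543, 38281 and 27223 TPM, or 31682 ± 5831 TPM (SD, n = 3), so control 2 was 1.41 times the lowest animal. A model without a symbol that is described as a ferritin heavy chain (AMEX60DDU001023114) had 1303, 1231 and 1462 TPM and is not in this level.

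Next in order were COX3 and MT-CO1, subunits of cytochrome c oxidase that are encoded by the mitochondrial genome, at 8697 ± 674 and 8158 ± 1159 TPM. The table places these models on nuclear chromosome arms, COX3 at 2q, 1373210306 to 1373211477, plus strand and MT-CO1 at 5p, 1033692261 to 1033693989, plus strand. The domain annotated for the COX3 model is that of an ATP synthase A chain. Whether the COX3 level includes reads of another mitochondrially encoded gene was not tested. Further models named COX1 or COI, other names of MT-CO1, averaged 2412, 1376, 148 and 27 TPM and are not in the MT-CO1 level. Models with names of mitochondrially encoded genes held 2.63 ± 0.187% of TPM (SD, n = 3), and whether nuclear copies share their reads was not tested. SLC25A5, which exchanges ADP and ATP across the inner mitochondrial membrane, had 6628, 7234 and 6217 TPM in its leading model. ATP5F1B, a catalytic subunit of the ATP synthase, had 4445, 5162 and 4459 TPM. Control 2 was highest for both and control 3 lowest for SLC25A5.

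Translation took the largest number of places among the 20 most abundant named models. The ribosomal proteins RPS2, RPSA, RPL3, RPS14, RPS27 and RPS18 averaged 7806, 5397, 5329, 4950.2, 4746 and 3945 TPM. Ribosomal protein genes as a family held 17.0 ± 0.416% of TPM but 8.34% of counts. The elongation factors EEF1A1 and EEF2 averaged 7800.1 ± 331 and 5122 ± 424 TPM. RACK1, a ribosome-bound scaffold, had 4079.7, 4136 and 4037 TPM and was almost level across the animals, while TPT1, a translationally controlled growth protein, had 4241, 4135 and 3048 TPM with control 3 lowest.

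Genes for the transport and metabolism of the tubule stood among these 20 as well. FXYD2, the regulatory gamma subunit of the sodium pump, had 4031, 3409 and 3208 TPM at 9p, 166731529 to 166766059, plus strand, with control 1 highest. BHMT, which uses betaine to make methionine, had 2945, 4704 and 2946 TPM in its leading model, with control 2 well above the nearly equal other animals.

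**Figure D1:**
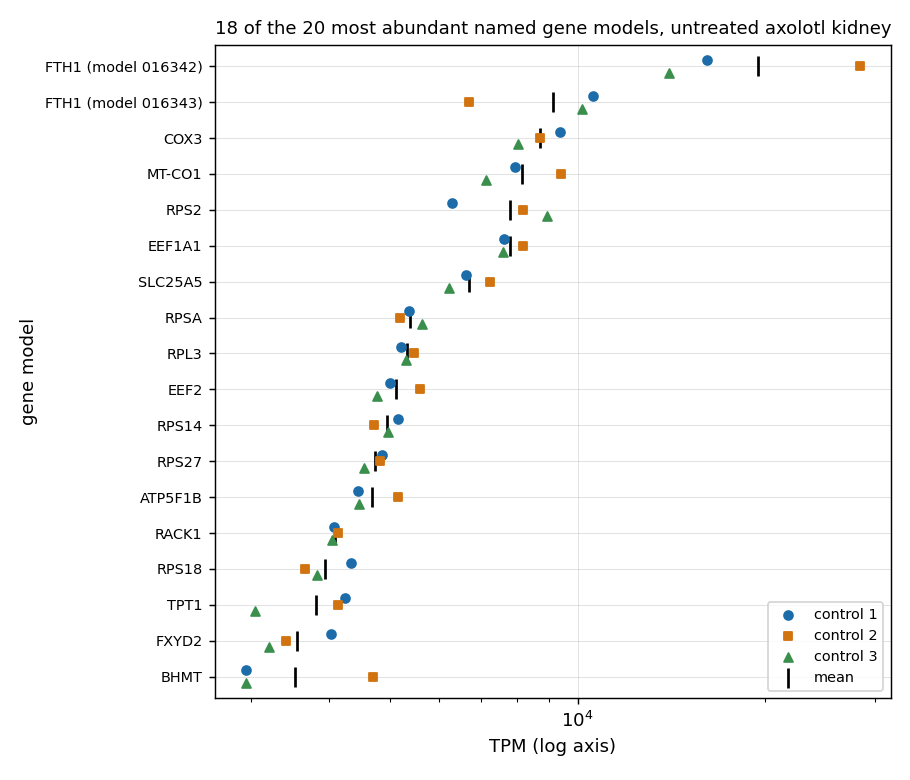
TPM of 18 of the 20 most abundant gene models with a symbol in the 3 untreated kidneys, on a log axis; each row is a gene model, coloured points are the animals and the black bar is their mean. The 2 FTH1 models sit at the top, control 2 being highest in the first (28321 TPM) and lowest in the second (6693 TPM), while most others differ little between animals.

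Ranked by reads instead, without correction for length, the order favoured longer gene models. The named models with most reads included FTH1 (22872 CPM), SELENOP (13365 CPM), ND5 (11032 CPM), the other FTH1 model (10768 CPM), EEF1A1 (9856 CPM), EEF2 (6249 CPM), FXYD2 (5395 CPM), ACTG1 (4956 CPM) and MT-CO1 (4706 CPM). The model named ND5 is 14107 bases long and lies beside MT-CO1 on 5p (1033694321 to 1033708427, plus strand). Whether it also takes reads of other mitochondrially encoded genes was not tested. SELENOP carries selenium in plasma and ACTG1 is a cytoplasmic actin. SELENOP, over 2 models, had 3389, 2730.2 and 2516 TPM, with control 1 highest. ATP1B1, the beta subunit of the sodium pump, had 1405, 1523 and 1520.2 TPM, with controls 2 and 3 nearly equal.

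Some abundant transcripts carry no symbol in the table and are known only by a protein description or not at all; they were picked after their values were seen. A model described as glyceraldehyde-3-phosphate dehydrogenase (AMEX60DD026859), a glycolytic enzyme, had 8808, 9458 and 8109.7 TPM. One described as a ferritin light chain (AMEX60DD016339) had 2071, 2252 and 2147 TPM, and one described as carbonic anhydrase 2 (AMEX60DD040029), which makes acid and bicarbonate from carbon dioxide, had 1106, 1074 and 1001 TPM. The symbol CA2 itself had 0 counts. The most abundant model with neither symbol nor description (AMEX60DD029926) had 8181, 7316 and 7791 TPM.

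To describe the organ by cell type and function, 41 gene lists with 703 symbols were used, of which 601 symbols had a gene model by name and 507 averaged at least 1 TPM. Across all symbols in the table, 12086 of 14732 reached 1 TPM. Summed over their members, 18 of the 41 lists reached 1000 TPM. Counts below of members highest or lowest in an animal rest on CPM, which can order the animals differently from TPM, and on members with a mean of at least 1 CPM. Over all 12324 such symbols, 34.1%, 32.1% and 33.8% were highest in controls 1, 2 and 3. The lowest level was in these animals for 4111, 4175 and 4038 symbols.

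**Figure D2:**
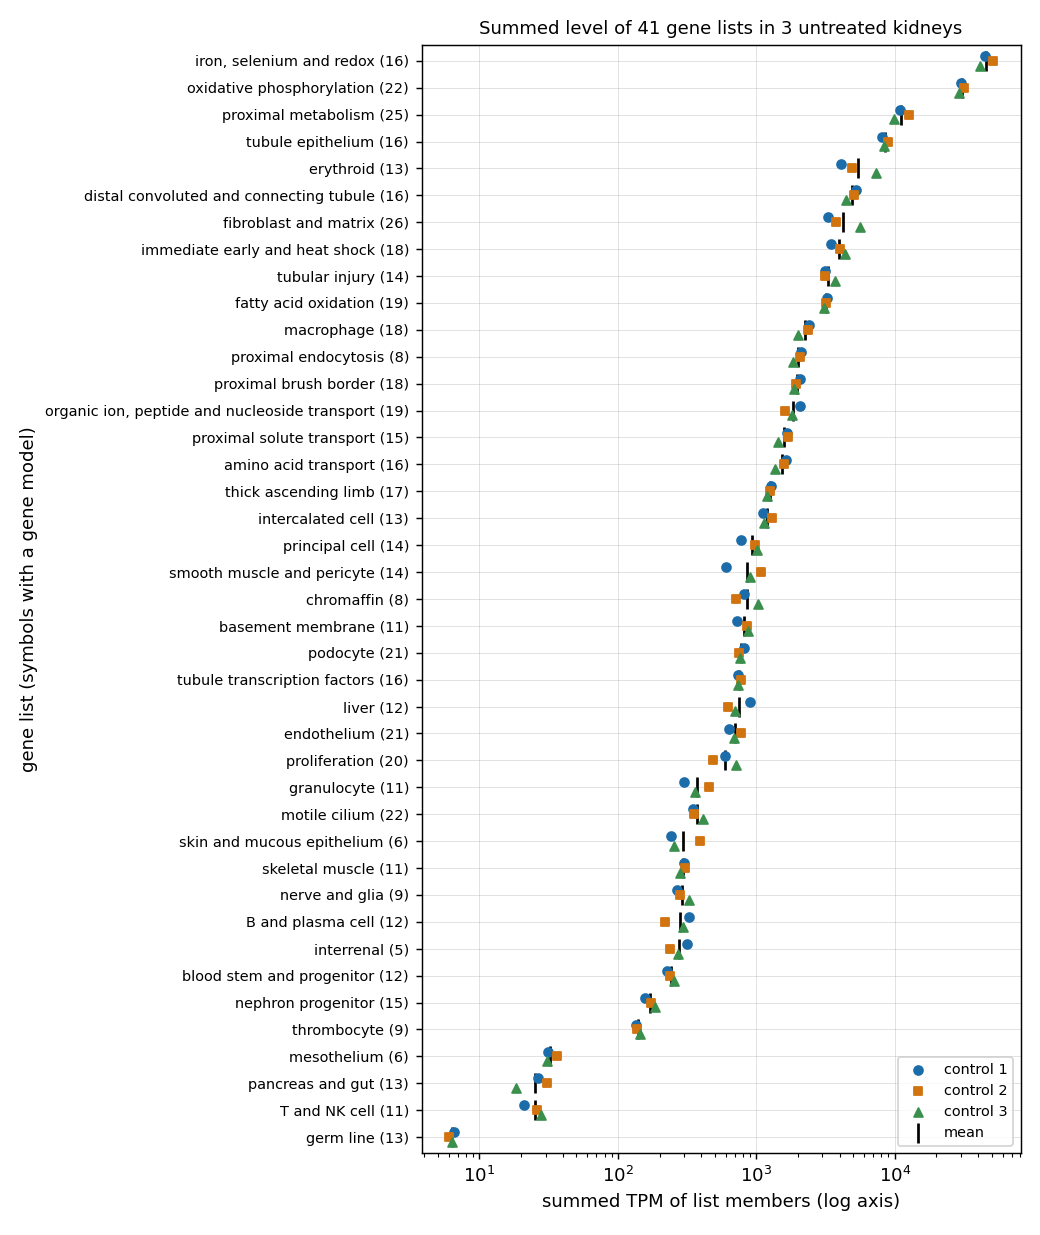
Summed TPM of each of the 41 lists in the 3 untreated kidneys, on a log axis, ordered by mean; the number of symbols with a gene model is in brackets, points are animals and the black bar is their mean. The list for iron, selenium and redox leads at 45917 TPM, followed by oxidative phosphorylation at 30385 TPM and proximal metabolism at 11120.2 TPM, and germ line genes come last at 6.31 TPM.

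The endocytic machinery of the proximal tubule, which recovers filtered protein, was strongly expressed. Of its listed genes, 8 of 9 averaged 1 TPM or more, EHD1 had no gene model by name, and they summed to 2108, 2050.0 and 1845 TPM. CUBN, the cubilin receptor, had 751, 680.4 and 681 TPM over 7 models, a pair of which overlap on opposite strands. AMN, which anchors cubilin in the membrane, had 600.4, 615 and 522 TPM. LRP2, or megalin, the large endocytic receptor that also binds aminoglycosides, had 268, 296 and 201 TPM over 2 models. RAB11A, a recycling GTPase, had 226, 194 and 205 TPM. Control 3 was lowest for AMN and LRP2.

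Brush border genes summed to 1956 ± 90.5 TPM (SD, n = 3), with 16 of 20 symbols at 1 TPM or more. VIL1 (villin, which bundles actin in microvilli) had 418, 404 and 459 TPM and EZR (ezrin, which ties actin to the membrane) had 376, 336 and 304 TPM. The scaffold PDZK1 had 309, 266 and 281 TPM and the peptidase ENPEP 149.8, 134 and 129.7 TPM. Each of these kept within a narrow band across the animals. MEP1A, a meprin protease subunit, averaged 0.067 TPM, and TREH had no gene model by name.

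The transporters for phosphate, glucose, bicarbonate and carboxylates summed to 1673, 1679.8 and 1422 TPM. SLC34A1, the sodium-phosphate cotransporter of the brush border, had 348, 380.0 and 262 TPM and SLC13A3, a dicarboxylate carrier, had 329, 316 and 302 TPM. SLC4A4, which moves sodium and bicarbonate across the basolateral side, had 229.9, 232 and 192 TPM. Control 3 was lowest for all 3. The low-capacity glucose carrier SLC5A1 had 144, 172 and 158 TPM and the high-capacity carrier SLC5A2 had 114, 76.2 and 77.9 TPM. SLC5A1 was above SLC5A2 in each of the animals, and the groups of 3 values did not overlap. No gene model was named AQP1, SLC34A3, SLC20A2 or SLC26A1.

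Amino acid carriers summed to 1531 ± 143 TPM (SD, n = 3). The shared heavy chain SLC3A2 had 425, 384 and 395 TPM and SLC43A2, a carrier of large neutral amino acids, had 353, 387 and 243 TPM. SLC7A7, the basolateral exchanger of cationic amino acids, had 211, 206 and 179 TPM and SLC7A9, its luminal relative for cystine, had 188, 159 and 153 TPM. SLC43A2, SLC7A7 and SLC7A9 were lowest in control 3, and 10 of 16 members had their highest level in control 1.

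Organic ion carriers, which secrete drugs and waste, summed to 2063, 1616 and 1797 TPM. The organic cation carrier SLC22A2 had 461, 305 and 382 TPM. The organic anion carrier SLC22A6 had 481, 214 and 293 TPM over 3 models, and the luminal pump ABCC2 had 228, 213 and 202 TPM. Control 1 was highest and control 2 lowest for SLC22A2 and SLC22A6. A further member, SLC22A7, ran the other way with 7.25, 85.8 and 105 TPM, control 1 being far below the others. ABCB1 had 0 counts in its gene model. A model without a symbol that is described as solute carrier family 22 member 6-A (AMEX60DD024960) had 52.4, 53.6 and 54.2 TPM and is not in the SLC22A6 level.

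Metabolic enzymes of the proximal tubule formed the largest nephron list, at 10849, 12625 and 9887 TPM. Beside BHMT, it held ASS1, which makes argininosuccinate on the way to arginine, at 1151, 1704 and 1025 TPM. CYP27B1, which makes active vitamin D, had 419, 304 and 218 TPM. ASS1 was highest in control 2, while CYP27B1 was highest in control 1 and lowest in control 3. ACMSD, an enzyme of tryptophan breakdown, had 43.5, 4.7 and 1.83 TPM, and was highest by far in control 1.

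The diluting segment, the counterpart of the mammalian thick ascending limb, was represented by SLC12A1, the sodium-potassium-chloride cotransporter, at 443, 518 and 456 TPM. KCNJ1, the potassium channel that recycles potassium for it, had 168, 174 and 173 TPM. The paracellular channel proteins CLDN10 and CLDN16 had 326, 183 and 227 TPM and 104, 98.7 and 104 TPM. KCNJ1 and CLDN16 were nearly level between animals and CLDN10 was not. UMOD, the uromodulin of mammalian urine, summed to 8.47, 8.1 and 12.1 TPM although 26 models carry its symbol, and EGF and ESRRB averaged 0.015 and 0.04 TPM. The list summed to 1248 ± 45.5 TPM (SD, n = 3).

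Distal convoluted and connecting tubule genes summed to 5219, 5067 and 4406 TPM, with FXYD2 holding 72.5%. SLC12A3, the thiazide-sensitive sodium-chloride cotransporter, had 502, 585 and 467 TPM. CALB1, the calcium buffer calbindin, had 319, 661 and 316 TPM, control 2 being well above the nearly equal others. KCNJ16, a basolateral potassium channel subunit, had 136, 165 and 191 TPM. TRPM6, a magnesium channel, had 0 counts, and TRPV5 and S100G had no gene model by name.

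Genes of the principal cell, which reabsorbs sodium under mineralocorticoid control, summed to 780.4, 976 and 1018 TPM, the sum being lowest in control 1. By member, 7 of 12 were lowest in control 1 and 5 in control 3. SGK1, a kinase induced by corticosteroids, had 299, 361 and 423 TPM and SCNN1A, the alpha subunit of the epithelial sodium channel, had 191, 251 and 279 TPM. HSD11B2, which shields the mineralocorticoid receptor from glucocorticoids, had 130.1, 177 and 147 TPM and SCNN1B, the beta channel subunit, had 38.1, 46.5 and 39.6 TPM. No gene model was named AQP2, the vasopressin-regulated water channel, and the basolateral channel AQP3 had 24.8, 34 and 32.4 TPM over 2 models.

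Intercalated cells secrete acid or bicarbonate. Their list summed to 1118, 1308 and 1141 TPM, led by ATP6V1B1, a proton pump subunit found in these cells in mammals, at 419.8, 446 and 394 TPM. The pump subunits ATP6V1G3 and ATP6V1C2 had 125, 161 and 118 TPM and 141, 116 and 117 TPM. RHCG, an ammonia channel, had 111, 131 and 101 TPM. ATP6V1G3 and RHCG were highest in control 2 and ATP6V1C2 in control 1, and 8 of 12 members had their highest level in control 2. The list also holds SLC4A1 and RHAG, a model of which averaged 98.8 TPM, and both are red cell genes too. The part of red cell RNA in this list was not tested.

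**Figure D3:**
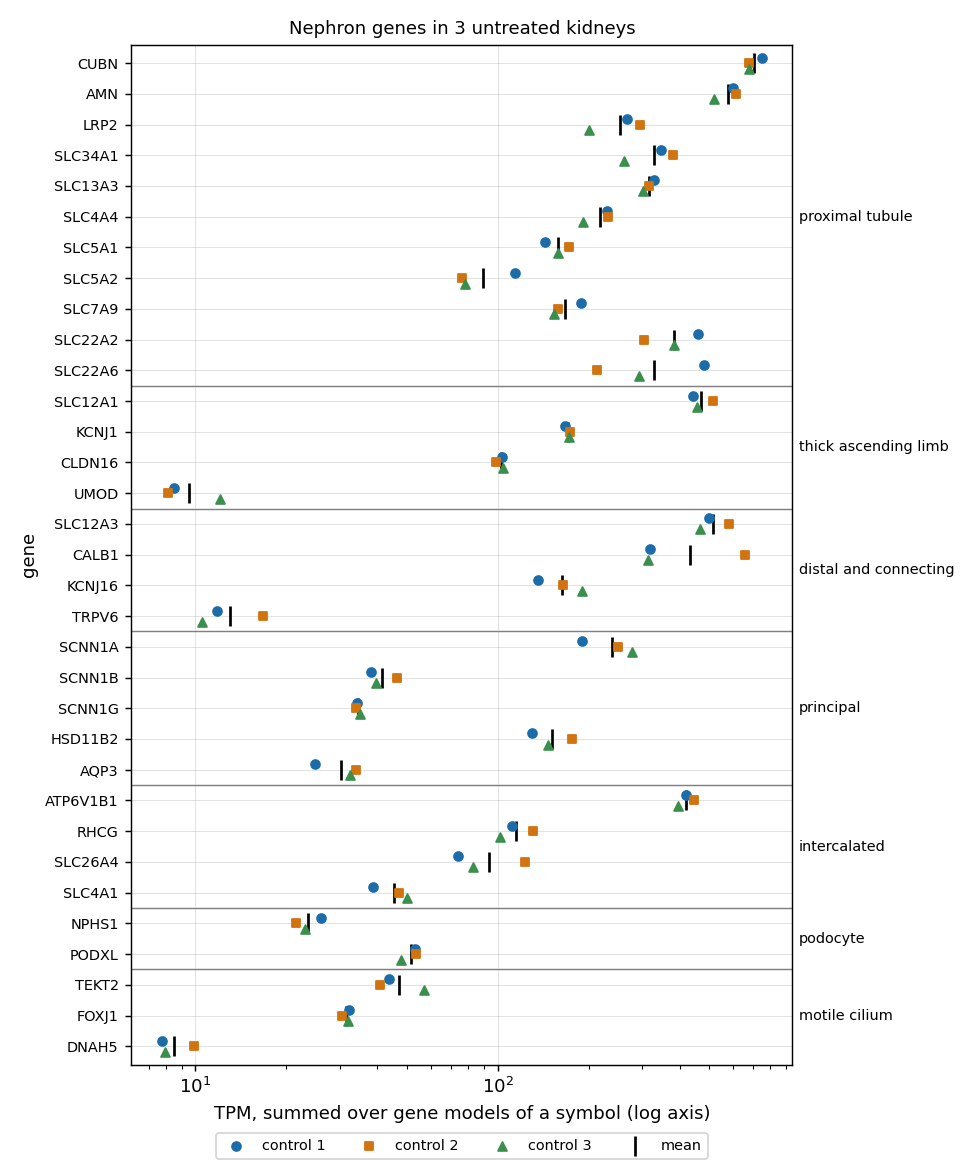
TPM of genes chosen, with values seen, to stand for each part of the nephron in the 3 untreated kidneys, on a log axis; points are animals, the black bar is their mean and grey lines part the segments. CUBN, AMN, SLC12A1, SLC12A3 and ATP6V1B1 average between 420.0 and 704 TPM, the podocyte gene NPHS1 averages 23.6 TPM and the ciliary gene FOXJ1 31.5 TPM, and UMOD averages 9.55 TPM.

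Added together, the 4 proximal lists for endocytosis, brush border, solute transport and metabolism came to 16687, 18284 and 15036 TPM and the 4 distal lists to 8400.4, 8614 and 7762 TPM. The proximal sum was 1.99, 2.12 and 1.94 times the distal sum, a mean of 2.02 ± 0.0961 (SD, n = 3). This ratio rested on part of the lists. Without the metabolism list it was 0.672 ± 0.0203, so the distal sum was then the larger, and without FXYD2 it was 3.54 ± 0.260. Both alternatives were added after the values were seen.

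Glomerular genes were present at lower levels. The podocyte list summed to 775 ± 29.4 TPM (SD, n = 3), with 19 of 24 symbols at 1 TPM or more. Its leading members were ACTN4, an actin crosslinker at 244, 194 and 187 TPM, and CLIC5 at 134, 116 and 115 TPM, both of which other cells use too. NPHS1 (nephrin), a gene of the slit diaphragm, had 26, 21.6 and 23.1 TPM. Control 1 was highest for all 3. TRPC6 averaged 0.085 TPM, and the collagen chains COL4A3, COL4A4 and COL4A5 had no gene model by name.

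Every gene on the list for motile cilia was detected: 22 of 22 symbols averaged 1 TPM or more, and the sum was 347, 353 and 410.5 TPM. TPPP3 and MNS1, proteins of ciliary microtubules, had 50.6, 52.7 and 61.5 TPM and 38.4, 35.8 and 43.2 TPM. The tektins TEKT2 and TEKT1 had 43.8, 40.7 and 57.3 TPM and 23.8, 36 and 42.3 TPM, and FOXJ1, the transcription factor that switches on the motile ciliary program, had 32.1, 30.5 and 32 TPM. FOXJ1 was level in the animals, and 13 of 22 members were highest in control 3.

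Transcription factors of the tubule had the smallest SD relative to the mean among the nephron lists, at 735, 774 and 739 TPM. TFCP2L1, which acts in distal and collecting segments, had 295, 333 and 319.5 TPM and CUX1 had 137, 134 and 143 TPM over 6 models. ESRRG, a regulator of oxidative metabolism, had 37, 36.2 and 33.9 TPM. The nephron lineage factors PAX8, PAX2 and LHX1 had 31, 33.7 and 32.1 TPM, 23.9, 27.9 and 25 TPM and 15.9, 18.2 and 16.4 TPM. All 3 lineage factors stayed within a narrow band across the animals.

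Genes of nephron progenitors were low, with 11 of 15 symbols at 1 TPM or more and a sum of 172 ± 14.4 TPM (SD, n = 3). CRYM, a thyroid hormone binding protein, held 49% of it at 73.9, 89 and 89.8 TPM. UNCX, RET and OSR1, regulators of early kidney formation, had 13.6, 14.5 and 14.9 TPM, 15.3, 13.1 and 11.8 TPM and 9.25, 11.3 and 18.4 TPM. SIX2, which keeps progenitors in their state in the mouse, had 0.778, 0.999 and 0.615 TPM.

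Epithelial genes that span segments summed to 8449.8 ± 449.8 TPM (SD, n = 3), with ATP1B1 among the highest. The keratin KRT18 had 722, 722 and 901 TPM over 3 models and the kidney cadherin CDH16 had 634, 669.9 and 523 TPM. A further model described as cadherin-16 but without a symbol (AMEX60DD015391) had 98, 132 and 124 TPM.

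Across the solute carrier family, 262 of 309 symbols averaged 1 TPM or more and 39 averaged 100 TPM or more. After the mitochondrial carriers SLC25A5, SLC25A6 and SLC25A3, the highest were SLC16A9 at 469, 643 and 514 TPM and SLC2A9 at 663, 413 and 484 TPM over 10 models; these were chosen after their values were seen, as were all genes named by family here. SLC2A9 is a urate carrier in mammals. SLC20A1, a phosphate carrier of most cells, had 292, 349 and 726 TPM and so was much higher in control 3, whereas SLC34A1 was lowest there. SLC23A1, which takes up vitamin C, had 412, 360.0 and 379 TPM.

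Pumps, channels and oxidases were described by family in the same way. Symbols starting with ATP6V, the prefix of vacuolar proton pump subunits, were all at 1 TPM or more, 21 of 21, and summed to 3871, 3881 and 3562 TPM. This match by name includes ATP6V1FNB at 11.7 TPM, which is named as a neighbour of the subunit gene ATP6V1F. FXYD3 stood beside FXYD2 at 533, 710.0 and 543 TPM. Of the aquaporins, 5 of 10 symbols reached 1 TPM, the highest being AQP11 at 42, 45.4 and 42 TPM, which was level between animals. Cytochrome P450 genes summed to 4568, 4262 and 4418 TPM, mostly from 16 models named CYP4B1 at 2380.3, 1815 and 2364 TPM and from CYP4A11 at 467, 720.4 and 483 TPM. Of the PAX factors only PAX8 and PAX2 reached 1 TPM, 2 of 7 symbols, and of the HOX genes 14 of 20 did, led by HOXB9 at 14.4, 12.9 and 15.8 TPM.

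Respiration and iron handling took more of the transcriptome than any nephron list. Oxidative phosphorylation genes summed to 30385 ± 1249 TPM, with SLC25A5, ATP5F1B, ATP5F1A and NDUFA4 at 9814, 4689, 2892 and 1571 TPM. Fatty acid oxidation genes summed to 3255, 3161 and 3079.8 TPM and had the smallest SD relative to the mean of all 41 lists, led by ACAA2, HADHA, ACADL and ECHS1 at 543, 375, 271 and 266 TPM. The list for iron, selenium and redox summed to 44731, 51452 and 41568 TPM, of which FTH1 held 69%. Catalase (CAT), which breaks down hydrogen peroxide, had 4674, 3227 and 3609 TPM and the glutathione transferase GSTP1 had 3198, 2714 and 3321 TPM. HADHA and HADHB models overlap on opposite strands, so their split is uncertain.

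Genes of fibroblasts and matrix were prominent as a list and varied between animals. On the list, 26 of 26 fibroblast and matrix genes averaged at least 1 TPM, and the list summed to 3298, 3781 and 5578 TPM. COL1A1 and COL1A2, the chains of type I collagen, had 793, 830.4 and 1489 TPM and 411, 440.4 and 787 TPM. COL3A1, the chain of type III collagen, had 536, 828 and 1063 TPM and the proteoglycan BGN had 322, 363 and 442 TPM. Control 3 was highest and control 1 lowest for each of them, and 19 of 26 members had their highest level in control 3.

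Smooth muscle and pericyte genes summed to 604, 1080.5 and 895 TPM, with control 2 highest. ACTA2, smooth muscle actin, had 289, 527 and 492 TPM, and the actin-binding proteins TAGLN and CNN1 had 66.8, 144 and 98.1 TPM and 14.9, 77.7 and 26.8 TPM. MYL9, a myosin light chain, had 79.8, 109 and 107 TPM. Control 1 was lowest for all 4.

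Endothelial genes summed to 630.1, 775 and 689 TPM. PLVAP, a protein of capillary pores, had 146, 206 and 155 TPM, LYVE1 105, 107 and 94.7 TPM, ENG 56.4, 77.6 and 72.4 TPM and CDH5, the cadherin of endothelial junctions, 41.1, 52.7 and 52.5 TPM. PECAM1, a widely used endothelial marker, was low at 8.79, 10.2 and 9.75 TPM, and CLDN5 had 0 counts. Basement membrane genes summed to 816 ± 81.4 TPM (SD, n = 3), led by COL4A1, COL4A2, HSPG2 and COL18A1 at 187, 152, 103 and 100.3 TPM; the models of COL4A1 and COL4A2 overlap on opposite strands. Mesothelial genes summed to 32.6 ± 2.99 TPM, mostly LRRN4 at 20.6 TPM, with UPK1B, CALB2 and BNC1 at 5.04, 3.51 and 1.8 TPM.

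Steroid- and catecholamine-making cells were both visible. CYP11A1, which starts steroid synthesis from cholesterol, had 132, 116 and 116 TPM and STAR, which brings cholesterol into mitochondria, had 54.4, 48.5 and 57.5 TPM. FDX1, the electron donor of these enzymes, had 103, 54 and 74.1 TPM and MC2R, the corticotropin receptor, had 14.3, 11.2 and 13.5 TPM. CYP11A1 and STAR were near level between animals. A model without a symbol that is described as mitochondrial cytochrome P450 11B (AMEX60DD040836), the last enzyme of corticosteroid synthesis, had 230.3, 193 and 189 TPM. In this list 7 symbols had no gene model by name, CYP17A1, CYP21A2, HSD3B2, CYP11B1, CYP11B2, NR5A1 and MRAP.

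Likewise 8 of 8 chromaffin genes averaged 1 TPM or more, and the list summed to 818, 715 and 1028 TPM. The granins CHGA and CHGB had 331, 278 and 396 TPM and 228, 190.0 and 266 TPM. The enzymes of catecholamine synthesis TH, DBH and PNMT had 21.8, 20.5 and 25.7 TPM, 127, 122 and 162 TPM and 84.8, 84.2 and 149.8 TPM. PNMT makes adrenaline from noradrenaline. Every member was lowest in control 2. Nerve and glial genes summed to 290.4 ± 30.7 TPM (SD, n = 3), with PRPH, UCHL1, TUBB3 and STMN2 at 105, 54.4, 50.6 and 45.8 TPM.

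Erythroid genes had the highest sum among the lists for cells outside the nephron, and the largest SD relative to the mean of all 41 lists. The erythroid list summed to 4060.0, 4870.0 and 7276 TPM. HBZ and HBG2, named after the nearest human globins, had 1472, 1654 and 2775 TPM over 5 models and 1593, 1549.7 and 2720.1 TPM over 6 models. HBD and HBE1 had 781, 1417 and 1389 TPM and 114, 129 and 221 TPM. HB-AM, a globin gene outside the list that was added after its values were seen, had 2 models and 3214, 5189 and 5377 TPM. Control 3 was highest for HBZ, HBG2, HBE1 and HB-AM, control 1 was lowest for HBZ, HBD, HBE1 and HB-AM, and the model named HBA1 had 0 counts. Several globin models overlap, so their split between symbols is uncertain. RNA of circulating and of resident red cells cannot be told apart here.

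Blood stem and progenitor genes summed to 227, 238 and 254 TPM, led by CD34, GATA2, MEIS1 and MECOM at 159, 25.4, 19.2 and 18.6 TPM, each of which kidney or vessel cells can also express. Thrombocyte genes summed to 139 ± 4.49 TPM, with THBS1, F13A1, ITGB3 and GP9 at 110.2, 10.9, 7.94 and 3.5 TPM. EPO, the hormone that drives red cell formation, had 1.45, 2.22 and 4.81 TPM from 10, 17 and 36 counts.

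The macrophage list summed to 2418, 2354 and 2007 TPM, but APOE, a lipid carrier that tubule cells may also make, held 60.8% of it at 1472, 1382 and 1266 TPM. LGMN, a lysosomal protease also active in proximal tubules, had 560.3, 579.5 and 468 TPM. CD74, the invariant chain of class II antigen presentation, had 248, 253 and 170.2 TPM and AIF1 had 32.6, 23.9 and 24.3 TPM. CSF1R, the macrophage growth factor receptor, had 15.2, 17.1 and 11.9 TPM and CD163 had 0 counts. Control 3 was lowest for 11 of 13 members.

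Granulocyte genes summed to 299, 458 and 361 TPM, of which ALOX5, a leukotriene enzyme, held 82.2%. PRG2 and MPO, granule proteins of eosinophils and neutrophils in mammals, had 14.1, 69.7 and 14.1 TPM and 1.21, 21.4 and 2.12 TPM, and KIT, a stem cell factor receptor, had 13.2, 13.7 and 12.3 TPM. PRG2 and MPO were high in control 2 and KIT was level. LTF and MMP8 had 0 counts. T and NK cell genes summed to 21, 26.2 and 27.9 TPM, with PRF1, TCF7, GZMA and CD3E at 15.2, 4.76, 1.86 and 1 TPM. B and plasma cell genes summed to 325, 219 and 296 TPM, most of it XBP1, a factor of secretory cells, at 251, 174 and 261 TPM, while JCHAIN, which joins secreted antibodies, had 49.1, 14.7 and 7.54 TPM with control 1 highest. BLNK and CD79A averaged 11.9 and 3.88 TPM, CD79A being lowest in control 1, and the model named IGLC1 had 0 counts. A model without a symbol, described as immunoglobulin lambda-like polypeptide 5 (AMEX60DD000274), had 89.7, 43.7 and 19.1 TPM.

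Lists for other tissues were low or rested on few genes. Germ line genes summed to 6.56, 6.02 and 6.35 TPM, with ZP2, ZP3, DAZL and TDRD1 at 4.24, 1.35, 0.394 and 0.172 TPM and with 8 symbols under 0.1 TPM, namely DDX4, PIWIL1, PIWIL2, TDRD9, SYCP3, FIGLA, GDF9 and ACR. Skeletal muscle genes summed to 294 ± 12.1 TPM, of which the glycogen phosphorylase PYGM held 97.9%, and CKM, MYH2 and TNNC2 averaged 4.14, 0.941 and 0.31 TPM. ALB, the albumin gene of the liver, had 0.133, 0.498 and 1.02 TPM, so the sum of 745 ± 145 TPM for the liver list came from the apolipoproteins APOB (314, 323 and 294 TPM) and APOA1 (398, 139.9 and 249.8 TPM), from SERPINA1 (159, 128 and 120.0 TPM) and from FGB (30.7, 32.6 and 36.7 TPM). Pancreas and gut genes summed to 25.1 ± 6.12 TPM, with CELA2A, PNLIP, CPA1 and GCG at 13, 6.71, 1.62 and 1.56 TPM. Skin and mucous epithelium genes summed to 243, 392 and 254 TPM, with KRT5 at 107, 170.4 and 115 TPM, MUC5AC at 94.3, 96.1 and 85 TPM, MUC2 at 32.3, 109 and 44.8 TPM and KRT15 at 6.54 TPM, and control 2 stood above the others for KRT5 and MUC2.

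Cell division genes were expressed in the resting organ. On the list, 20 of 20 proliferation genes averaged 1 TPM or more and they summed to 597, 483 and 709 TPM. The replication licensing genes MCM3, MCM2 and MCM5 had 73.8, 48.9 and 70.8 TPM, 67.2, 49.6 and 76.6 TPM and 69, 49.3 and 66.1 TPM. PCNA, the replication clamp, had 60.4, 43.3 and 70.4 TPM and MKI67, a marker of cycling cells, had 36.2, 39.9 and 39.7 TPM. Control 2 was lowest for MCM3, MCM2, MCM5 and PCNA, while MKI67 was almost level. Which cells of the kidney divide cannot be told from whole tissue.

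Stress and injury genes gave the level before treatment. Immediate early and heat shock genes summed to 3442, 4017 and 4338 TPM, of which the constitutive chaperone HSPA8 held 85.8% (2968, 3526 and 3632 TPM), followed by HSPA5 (353, 359 and 519.7 TPM), DNAJB1 (30.2, 22.8 and 38.2 TPM) and JUN (24.5, 25.3 and 40.0 TPM). Control 3 was highest for all 4, and for 9 of 12 members. EGR1, an immediate early factor, had 3.64, 16.5 and 16.6 TPM and so was low in control 1, and FOSB averaged 0.018 TPM. Genes that mark injured tubules in mammals summed to 3107, 3155 and 3679 TPM, led by VIM (989, 1178 and 1483 TPM), ANXA1 (903, 998 and 1078 TPM), ANXA2 (858, 673 and 716 TPM) and TIMP1 (113, 109.6 and 182 TPM), which connective tissue cells also express. No gene model was named HAVCR1, LCN2 or KRT20, and SOX4 averaged 0.076 TPM.

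The 3 kidneys resembled each other closely for most genes. Spearman's correlation of log2 CPM across genes lay between 0.960 and 0.973 for the 3 pairs over 19280 gene models, and genes within an animal are not independent. Counts differed between animals far beyond counting error, with a chi-square of 16.2 to 18.5 per degree of freedom, so no library repeats another. The median SD of log2 CPM between animals was 0.20 over models with a mean of at least 1 CPM, where counting error alone gives a median of 0.11. It was 0.28 for models at 1 to 10 CPM, 0.15 at 10 to 100 CPM, 0.13 at 100 to 1000 CPM and 0.12 above 1000 CPM, so the spread between animals levelled off in well-counted genes. Expressed as a biological coefficient of variation by edgeR, the common value was 24.4% and the median value per gene 20.2%.

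Of 10302 models with a mean of at least 10 CPM, 83 (0.806%) had an SD of log2 CPM of 1 or more. Controls 2 and 3 were at least 2-fold apart for 143 models, controls 1 and 2 for 227 and controls 1 and 3 for 236. Control 1 was the animal farthest from the median for 34.5% of these models, control 2 for 32.9% and control 3 for 32.6%. Counting only models where the farthest animal was at least 2-fold from the median, there were 116 for control 1, 44 for control 2 and 41 for control 3. The median coefficient of variation per gene was 18.5% without control 1, 22.0% without control 2 and 22.0% without control 3.

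The animals differed in which cell types and functions stood highest. Over all 12324 symbols with a mean of at least 1 CPM, 34.1% had their highest CPM in control 1, 32.1% in control 2 and 33.8% in control 3, and 4111, 4175 and 4038 of them had their lowest CPM in controls 1, 2 and 3. In control 3, 9 of 11 erythroid genes, 19 of 26 fibroblast and matrix genes, 15 of 20 proliferation genes and 13 of 22 motile cilium genes had their highest level. Some tubule lists stood the other way in that animal: 10 of 15 proximal solute transporters, 12 of 16 amino acid carriers and 10 of 14 distal convoluted and connecting tubule genes were lowest in control 3, as were 11 of 13 macrophage genes. Also lowest there were 6 of 8 proximal endocytosis, 9 of 16 brush border and 13 of 23 proximal metabolism genes. The same held for 8 of 15 thick ascending limb genes and 8 of 16 tubule transcription factors. In other tubule lists the counts were 5 of 12 principal cell genes, 6 of 12 intercalated cell genes, 6 of 17 organic ion carriers and 7 of 16 epithelial genes.

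In control 2, 10 of 13 smooth muscle and pericyte genes, 7 of 8 granulocyte genes, 8 of 12 intercalated cell genes, 7 of 11 basement membrane genes and 12 of 20 endothelial genes were highest. In control 1, 10 of 16 brush border genes and 10 of 16 amino acid carriers were highest, while 11 of 13 smooth muscle and pericyte genes and 10 of 11 basement membrane genes were lowest. Members of a list come from the same 3 libraries and are not independent of each other, and the part that the makeup of each tissue piece plays in these counts was not tested.

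**Figure D4:**
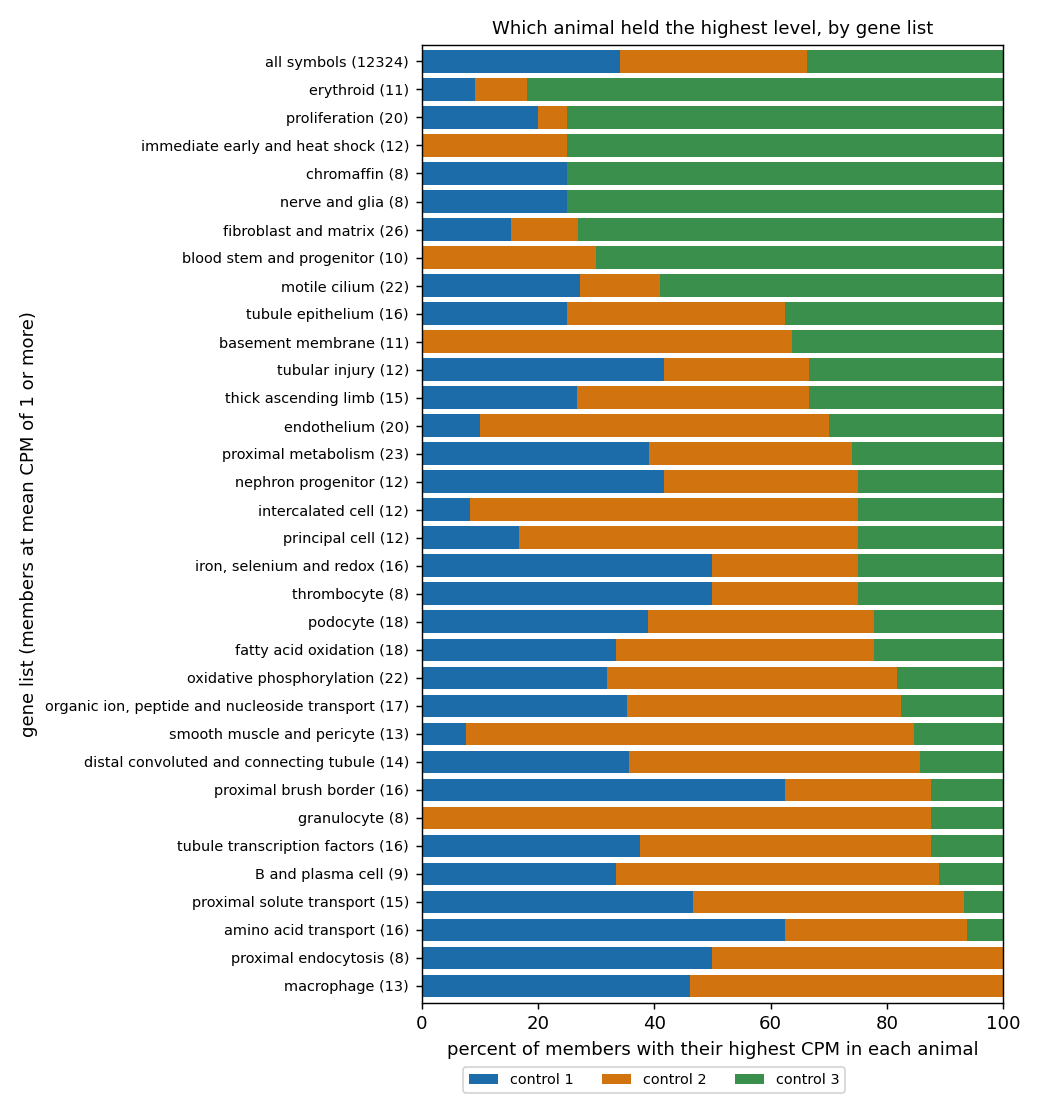
Percent of the members of each list, and of all symbols, that had their highest CPM in control 1, control 2 or control 3; each bar adds up to 100%, lists of at least 8 members with a mean of 1 CPM or more are shown, and their number is in brackets. All symbols divide almost evenly, while 9 of 11 erythroid genes are highest in control 3, 7 of 8 granulocyte genes in control 2 and no proximal endocytosis gene in control 3.

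Genes of the largest spread were mostly high or low in 1 animal, and their values are given as counts. A model of MUC2, a secreted mucin, had 0, 662 and 0 counts. ANGPTL1, an angiopoietin-like protein, had 1, 616 and 1 counts and S100A4, a calcium-binding protein, had 0, 529 and 5 counts. MPO and CEEL had 29, 568 and 55 and 80, 763 and 41 counts. For all of these control 2 was far above the other animals.

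Control 1 stood above the others for further genes. ACMSD had 724, 87 and 33 counts, and a model of APOA1 had 3356, 146 and 251 counts, or 246, 9.63 and 17.0 TPM. APOA1 over all its models, given above, was also highest in control 1 but differed far less between the animals. Control 1 stood below the others for SLC22A7, an organic anion carrier, with 225, 2960 and 3542 counts at 4q, 1171128890 to 1171897769, minus strand. The same held for HEXA, a lysosomal hexosaminidase, with 0, 204 and 287 counts. These differences went in both directions, and whether they follow a cell type list was not tested.

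For some genes a single model varied more than the gene as a whole. A model of RPL37A had 522, 18 and 24 counts, but all 7 models together had 1712, 1267 and 1229.7 TPM. A model of RPL15 had 1191, 1400 and 71 counts, against 852, 804 and 537 TPM for both models, and a model of CYP4B1 had 742, 48 and 905 counts while the symbol as a whole had 2380.3, 1815 and 2364 TPM. Reads of near-identical copies can be assigned to 1 copy or another, so these model-level differences are uncertain. SDF2, with 1 model, had 323, 354 and 6 counts, and CARTPT, a neuropeptide gene, had 2108, 128 and 1329 counts in its leading model and 151, 10.2 and 88.1 TPM over 6 models.

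**Figure D5:**
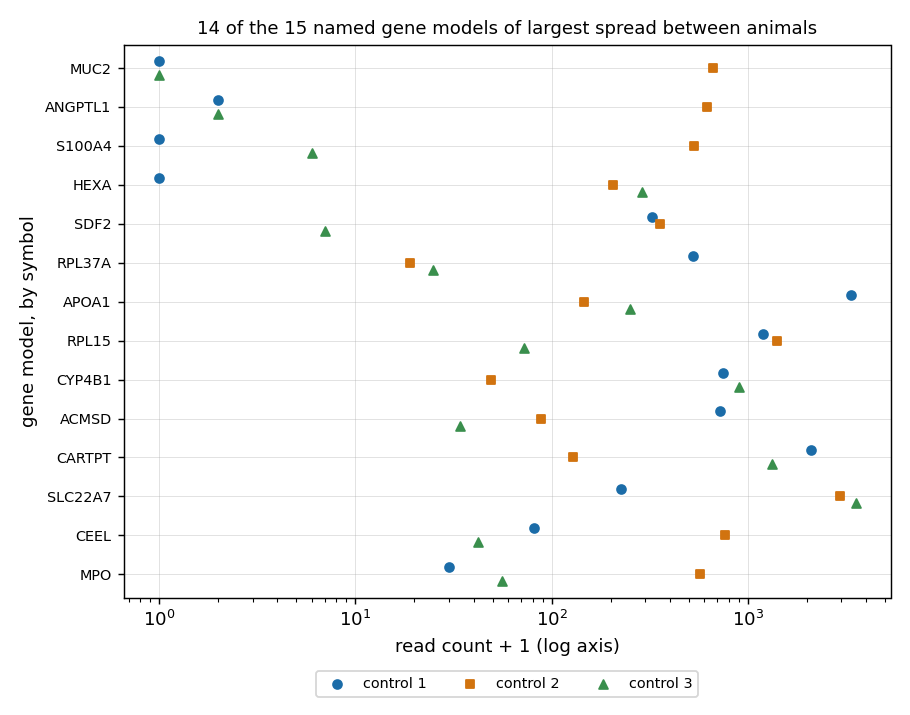
Read counts plus 1, on a log axis, of 14 of the 15 named gene models with the largest SD of log2 CPM between the 3 untreated kidneys among models with a mean of at least 10 CPM. Control 2 stands alone at the right for MUC2, ANGPTL1, S100A4, CEEL and MPO, and control 1 for RPL37A, APOA1 and ACMSD.

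A total of 54 models had 0 counts in 1 control and at least 100 in another, and 19 of them carried a symbol. Control 1 had 0 counts for 35 of the 54, control 2 for 14 and control 3 for 22. HEXA and S100A4 are given above. The other models high only in control 2 included MUC2 models AMEX60DD004438 (0, 662 and 0 counts) and AMEX60DD004439 (0, 399 and 0 counts). REG1B (0, 129 and 5 counts), F11 (0, 130 and 0 counts) and S100P (0, 107 and 0 counts) were further such models. So were MSMB (0, 250 and 0 counts) and ANGPTL2 (0, 116 and 1 counts). MUC2 over all its models, given above, was also highest in control 2 but was present in every animal. MUC2, S100P, REG1B and MSMB are known in mammals from secretory and mucous epithelia. F11, ANGPTL2 and S100A4 were also high in control 2 alone. Of 5 skin and mucous epithelium genes at a mean of 1 CPM or more, 4 were highest in control 2 and 1 in control 1. Over all symbols 32.1% were highest in control 2. MUC5AC, a further mucin given above, was near level between the animals. Which cells these reads came from was not tested.

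Control 1 alone was high for HLA-DRB1 (365, 1 and 0 counts), a class II antigen-presenting molecule, and for FUT2 (160, 0 and 0 counts), WDR3 (101, 0 and 0 counts), VWA3B (112, 0 and 0 counts), EMB (101, 0 and 10 counts) and CACNA1D (138, 20 and 0 counts). Control 3 alone was high for SLC10A2, a bile acid carrier (0, 3 and 119 counts), and alone without counts for FCGBP (138, 183 and 0 counts) and TEX11 (119, 100 and 0 counts). HERC3 (0, 65 and 108 counts) was without counts in control 1. With 1 library per animal, these presences and absences have no repeat within an animal.

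Among models with a mean of at least 100 CPM, FLNA, the actin crosslinker filamin A, had the smallest spread, with 160.2, 161 and 166 TPM and an SD of log2 CPM under 0.01. DCTN4, a dynactin subunit, had 62.2, 62.7 and 64.8 TPM, VAPB, a membrane contact protein, 238, 239 and 247 TPM and P4HB, a protein disulfide isomerase, 411, 415 and 425 TPM. The other genes among the 10 of smallest spread were EIF1B, DRG2, ABCF2, DNAJA2, RNF10 and EMC2, at mean levels of 334, 98.5, 169, 199.9, 93.8 and 98.6 TPM.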

How the data were processed

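RNA from kidneys of 5 axolotls was sequenced, and the 3 untreated libraries are described here. Per the labels' protocols, TRIzol was used for extraction and an NEBNext Ultra RNA kit for the libraries. Tools listed in the submitters' processing notes include HISAT2 2.0.5, fastp, featureCounts 1.5.0-p3, CASAVA 2.19 and DESeq2 1.20.0. Neither a genome build nor the strandedness of counting was stated in those sources. Coordinates and names are those of the deposited tables. The authors deposited raw read counts per gene model and FPKM, but each table bears the other's name, so whole-number counts were read from the one titled FPKM. The deposited FPKM equal the counts divided by gene length and library total, times 1.09, 1.07 and 1.05 for controls 1 to 3, and served as an alternative.

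TPM were computed from the counts and the deposited gene lengths. CPM were scaled with TMM factors (0.984 to 1.02) from edgeR 4.0.16 in R 4.3.3. Spread is the SD of log2(CPM + 0.5) over 3 animals, and edgeR gave dispersions from a model with an intercept only. On simulated libraries with a coefficient of variation of 20% the common value came out at 22.1% and the median per gene at 21.0%. Of 200 genes raised 4-fold in 1 library, 190 were among the 200 of largest SD, out of 10182 models with a mean of at least 10 CPM. Every simulated gene had the same coefficient of variation, so the recovery where genes differ in spread was not tested.

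No groups were compared and no test was made. The members, gene lists and rules for naming genes were chosen with earlier results of these data known. The rule named the 20 models of highest TPM, the 10 of highest CPM, up to 4 genes of each list, the 15 models of largest and 10 of smallest spread, models with 0 counts in 1 control and at least 100 in another, and a set of kidney genes whatever their level. Genes under 0.1 TPM are named where a count of them is given. List symbols were matched to the table by name, and 2 older symbols (SLC9A3R1, G6PC) were read as NHERF1 and G6PC1. A model that the table names both HB-AM and GLNC1 was counted as HB-AM. Some genes that these rules name are not reported here.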

Additional observations from a re-analysis of the deposited data

How the results depend on the processing

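No paired analysis was possible because no groups were compared and no test was made. Alternatives were CPM without length correction, the deposited FPKM rescaled to the TPM total, totals without mitochondrial and ribosomal protein genes or without models above 1% of a library, the most abundant model of each symbol, other thresholds and scalings, and each control left out in turn. CPM raised the number of models holding 50% of the total to 492, lowered the proximal over distal ratio to 1.57 and raised the number of lists at 1000 or more to 24. Without models above 1% of a library the 10 most abundant held 7.17%. The proximal over distal ratio was 1.90 with the most abundant model of each symbol, 1.90 without LRP2 and CUBN, 2.14 without SLC12A1, 0.672 without the proximal metabolism list, and 3.54 without FXYD2; the last pair was added after seeing the data. The median SD of log2 CPM was 0.21 with a pseudocount of 0.1 CPM, 0.18 with 1 CPM, 0.15 at a mean of at least 10 CPM, 0.16 on the deposited FPKM and 0.15 to 0.16 with each control left out, where it is taken over only 2 libraries. Control 1 was farthest for 35.8% of models at a mean of at least 1 CPM. The number of models at 1 TPM or more lay between 21190 and 22375 with other TPM totals or a control left out. With CPM, 19284 models reached a mean of 1. Other thresholds gave 25166 models at a mean of at least 0.5 TPM, and 17685 at 1 TPM with 10 counts in every control. Without ribosomal and mitochondrial genes, the levels of 37 of 41 lists moved by more than their SD between animals. With CPM those of 34 did. Ribosomal protein and mitochondrial genes held 17.0% and 2.63% of TPM, so taking them out raises the levels of all remaining genes together. The count of 37 follows from this rescaling and the SD of each list. It does not show that lists changed relative to each other. The deposited FPKM and the settings with a control left out moved 0, but neither could have moved a list. Rescaled to the TPM total, the deposited FPKM are the same values as TPM. Leaving out a control cannot shift a mean by as much as the SD between all the controls. These counts of 0 therefore do not show that the list levels are stable.

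Depth limits the rarest genes: levels under about 0.2 CPM rest on fewer than 3 counts in a library. With 3 animals an SD is itself uncertain, and many symbols are split over several models.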

Other observations

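Some models that were present in 1 animal and absent from another lay near each other in the genome. Of the 54 models with 0 counts in 1 control and at least 100 in another, 13 lay within 500 kb of another such model, in 6 runs. Other gene models can lie between the members of a run. The runs were looked at after the values were seen. On chromosome arm 9q, ANGPTL2 (815981710 to 815982467, minus strand) had 0, 116 and 1 counts, ANGPTL1 (816017189 to 816043578, plus strand) had 1, 616 and 1 counts, and a model described as a fibrinogen-like protein 1-like protein (AMEX60DD056141, 816273835 to 816285999, minus strand) had 0, 1779 and 6 counts. ANGPTL1, with 1 count in controls 1 and 3, is not among the 54. All 3 were high in control 2 alone. The next model along the arm, TMEM177 (816621206 to 816639880), had 105, 107 and 128 counts and was level between the animals.

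On arm 11q, 2 adjoining MUC2 models (210581602 to 210762797 and 210763926 to 210792392, plus strand) had 0, 662 and 0 counts and 0, 399 and 0 counts. On arm 13q, HLA-DRB1 (463689885 to 464012570, minus strand) had 365, 1 and 0 counts and an unnamed model that overlaps it on the plus strand (AMEX60DD010849, 463928607 to 464214801) had 200, 0 and 0 counts. On arm 11p, the unnamed models AMEX60DD003850, AMEX60DD003851 and AMEX60DD003853 had 0, 155 and 1 counts, 0, 413 and 3 counts and 0, 101 and 0 counts. These runs on 9q, 11q and 11p were high in control 2, and the run on 13q in control 1. A run on 1p had 0, 131 and 1 counts and 0, 131 and 2 counts in its models. A further run on 9q had 0, 112 and 10 counts and 0, 191 and 65 counts, highest in control 2 but not confined to it. How often gene models in general lie within 500 kb of each other was not counted. Whether these runs reflect expression, gene copies or alignment was not tested.

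Control 2 also held the most CRYAB, a small heat shock protein, at 49.9, 412 and 41 TPM, and LGALS2, a galectin, at 17.3, 96 and 8.54 TPM. An immunoglobulin heavy chain model named IGX had 69.2, 25.1 and 9.3 TPM. Like JCHAIN at 49.1, 14.7 and 7.54 TPM, it was highest in control 1 and lowest in control 3. CD79A, also a B cell gene, ran the other way, with 70, 421 and 413 counts and control 1 lowest. Of 9 B and plasma cell genes, 3 were highest in control 1, 5 in control 2 and 1 in control 3. Over all symbols these shares were 34.1%, 32.1% and 33.8%. MBP, a myelin protein, had 31, 79 and 370 counts and was highest in control 3.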
